A study of Mus musculus with 11 samples.

Results

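Injured arteries of mice lacking Nrf3 were compared between vessels: the carotid artery after ligation (2 libraries) against the femoral artery after wire injury (3 libraries). These 5 libraries of 11 in the series were chosen by their labels alone, and all genes were examined. Tissue was taken on day 7 after injury in each group. The carotid and femoral knockouts are labelled Nrf3-/-. The control carotid (3 libraries) and femoral (3 libraries) arteries, used here only to set the same vessel difference beside that of the knockouts, came from flox mice with the same injuries. The labels give no strain, age, sex or Cre driver, and do not say whether a library is 1 animal or a pool, or whether replicates are separate animals. The p-values therefore measure the spread between these libraries, which may be technical. Each vessel had its own injury, so that the anatomical vessel and the kind of injury cannot be told apart in any value below. In bulk tissue, fewer cells of a type and less RNA per cell cannot be told apart either.

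Nrf3, encoded by Nfe2l3, is a transcription factor of the cap'n'collar family, which binds antioxidant response elements together with small Maf proteins. Arterial smooth muscle has several embryonic sources: the carotid wall near the heart comes largely from neural crest, and limb arteries come from mesoderm. Hox genes record position along the body axis, and adult smooth muscle and fibroblasts keep much of the pattern they had in the embryo. Ligation stops flow and leads to thickening of the inner layer, whereas a wire strips the endothelium and stretches the wall.

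Library totals of the knockouts were 47986275 and 49671909 counts in the carotid artery and 46198146, 43698644 and 48392496 counts in the femoral artery. Nfe2l3 stood at 0.185 and 0.157 CPM (counts scaled to a common library total) in the carotid knockouts and at 0.233, 0.0451 and 0 CPM in the femoral knockouts, all below the control libraries (0.68 to 1.65 CPM). At the depth of that library a count of 0 is compatible with levels below 0.0622 CPM, and the vessels overlapped. Trim5, named with Nrf3 in the series title, stood at 0.33 and 1.37 CPM in the carotid knockouts and at 0.444, 0.406 and 0.394 CPM in the femoral knockouts, which also overlapped. Among the 5 knockout libraries, the first principal component held 47.5% of the variance and set the vessels apart. The second held 21.5% and put the carotid libraries at opposite ends, at 51.5 (replicate 1) and −63.1 (replicate 2).

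The vessels differed in 1047 of 21343 genes tested, 4.91%, by the quasi-likelihood test of edgeR with a Benjamini-Hochberg adjusted p below 0.05. Of these, 650 genes (3.05%) were higher and 397 (1.86%) lower in the carotid knockouts. A change of at least 2-fold was found for 469 higher (2.2%) and 257 lower genes (1.2%). The count was 459 without carotid replicate 1, 591 without carotid replicate 2 and 568 without femoral replicate 2. Libraries of the vessels did not overlap for 3977 genes higher (18.6%) and 3914 lower (18.3%) in the carotid knockouts, so that a lack of overlap alone says little with 2 libraries against 3. The median log2 change over all genes was −0.01.

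The gene groups described below differ widely in how many of their members passed the test, from all of the middle Hox genes to none of the endothelial markers. Each count can be read against the share over all genes, 3.05% higher and 1.86% lower.

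**Figure D1:**
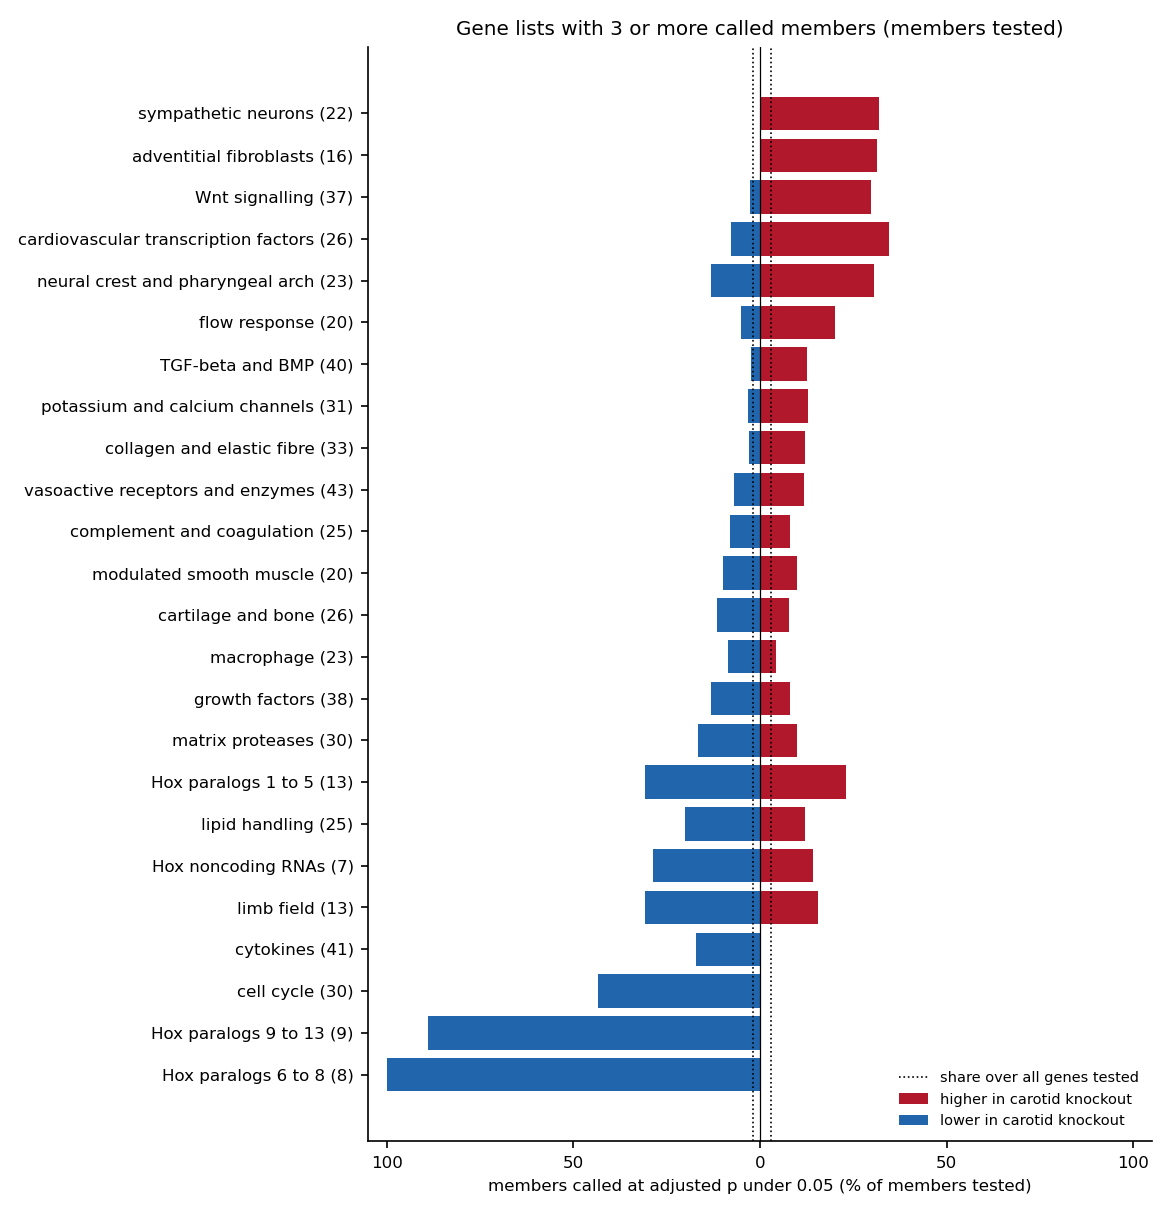
Percentage of the tested members of each gene list that passed an adjusted p of 0.05 in the knockouts, with members higher in the carotid artery to the right (red) and members lower in it to the left (blue). Dotted lines mark the shares over all genes tested, 3.05% higher and 1.86% lower, and the bars of Hox paralogs 6 to 8 and 9 to 13 reach far beyond them to the left, at 8 of 8 and 8 of 9 members.

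Of the gene lists examined, the middle and late Hox genes had the largest share of members called. Hox genes lie in clusters, and paralogs with low numbers are used near the head and those with high numbers towards the tail and the distal limb. Of paralogs 6 to 8, 8 of 8 tested were lower in the carotid knockouts, with a median log2 change of −5.02. Of paralogs 9 to 13, 8 of 9 tested were lower and 5 were without carotid replicate 1. The remaining member, Hoxc11, stood at 0 and 0.0196 CPM in the carotid knockouts and at 0.0423, 0.248 and 0 CPM in the femoral knockouts. The median was −7.25, or −5.84 with the gene at 0 in the carotid artery set to its bound. Paralogs 1 to 5 were split, with 3 members higher and 4 lower of 13 tested.

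Hoxa10 (chromosome 6, 52231197 to 52240854, minus strand, GRCm38) stood at 0.103 and 0.235 CPM in the carotid knockouts and at 26.5, 23.1 and 29.4 CPM in the femoral knockouts, a log2 change of −7.25 ± 0.32 (SE, adjusted p 5.33e-06). Hoxa9 next to it had 0.247 and 0.509 CPM in the carotid knockouts against 17.5, 18.1 and 20.5 CPM in the femoral knockouts (−5.61 ± 0.43, adjusted p 7.69e-05). Both were under 1 CPM in each carotid library and above 17 CPM in each femoral one. Hoxc10 had 2 counts in all over the carotid libraries and 2207 over the femoral libraries, a ratio of 786 (95% counting interval 217 to 6490). Hoxb9 had 1 and 833 counts, a ratio of 593 (106 to 23500). Hoxa11, used in the distal limb, had no count in the carotid knockouts and 100 in the femoral knockouts, which is at least 23.7-fold lower with a floor of 3 counts over the group.

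Further members repeated the pattern in each cluster. Hoxc8 had 0.0412 and 0.137 CPM in the carotid knockouts against 17.3, 18.4 and 26.6 CPM in the femoral knockouts (−7.81 ± 0.41), and Hoxc9 and Hoxc6 were lower by 7.54 and 6.12 on the log2 scale. Hoxb6, Hoxb7 and Hoxb8 were lower by 4.27, 4.84 and 5.16, and Hoxa7 by 4.89. The D cluster gave smaller differences. Hoxd9 had 1.03 and 1.47 CPM in the carotid knockouts against 3.17, 4.44 and 5.97 CPM in the femoral knockouts (−1.85 ± 0.30, adjusted p 0.00597, and 0.0599 without carotid replicate 1). Hoxd8 had 8.2 and 5.09 CPM against 12.2, 15.7 and 15.9 CPM (−1.14 ± 0.28, adjusted p 0.0412), and lost its call without carotid replicate 2 (0.254), any 1 femoral knockout library (0.0535 to 0.117), or any of 3 control libraries (0.0555 to 0.0595). Hoxa6, Hoxd10 and Hoxa11 passed as well, at few counts, and missed the threshold without carotid replicate 1 at adjusted p values of 0.0742, 0.12 and 0.0566. Hoxd10 and Hoxa11 also missed it without carotid replicate 2 (0.0698 and 0.0518), and Hoxd10 without femoral replicate 2 (0.0526).

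The head end of the A cluster went the other way. Hoxa2, which patterns the second pharyngeal arch, stood at 10.4 and 14.3 CPM in the carotid knockouts and at 2.43, 2.01 and 2.94 CPM in the femoral knockouts (2.32 ± 0.25, adjusted p 0.000814). Hoxa3, needed for the carotid body and the third-arch artery that becomes the carotid, had 20.1 and 26.9 CPM in the carotid knockouts against 7.36, 6 and 8.19 CPM in the femoral knockouts (1.71 ± 0.20, adjusted p 0.0011). Hoxa4 was higher by 1.72 ± 0.28. All 3 genes had every carotid library above every femoral one, as did 18.6% of all genes tested. They kept their calls without any 1 library. Hoxa5 (8.22 and 9.42 against 7.67, 6.99 and 8.95 CPM) and Hoxb3 (15.9 and 17.2 against 16, 12.1 and 14.4 CPM) overlapped between vessels. Lower in the carotid were Hoxb5 (−2.28 ± 0.33), Hoxc5 (−3.02 ± 0.37), Hoxc4 (−2.29 ± 0.43) and Hoxd4 (3.71 and 3.5 against 6.7, 8.86 and 6.03 CPM). The call of Hoxc4 was lost without carotid replicate 2 (adjusted p 0.102). That of Hoxd4 was lost without carotid replicate 1 (0.141) or 2 (0.166), or femoral replicate 1 (0.0577) or 2 (0.0984).

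Promoter windows of 4 genes of the A cluster are shown because 2 of them are higher in the carotid knockouts and 2 lower, on the same stretch of chromosome 6. Each window runs from 250 bases before to 50 after the start of the gene, read on the gene's strand from RefSeq on GRCm38.p6. Capitals mark the CCAAT box (CCAAT), the GC box (GGGCGG) and a composite site of PBX and HOX proteins (TGATNNAT), searched on both strands.

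Hoxa2, chr6:52164782-52165081, minus strand: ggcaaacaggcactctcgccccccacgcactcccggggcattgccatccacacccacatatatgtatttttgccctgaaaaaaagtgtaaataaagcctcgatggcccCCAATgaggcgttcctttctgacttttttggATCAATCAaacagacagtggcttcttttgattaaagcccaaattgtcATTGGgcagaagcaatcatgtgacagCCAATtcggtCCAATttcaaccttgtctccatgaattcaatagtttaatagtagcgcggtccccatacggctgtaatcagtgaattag

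Hoxa3, chr6:52213018-52213317, minus strand: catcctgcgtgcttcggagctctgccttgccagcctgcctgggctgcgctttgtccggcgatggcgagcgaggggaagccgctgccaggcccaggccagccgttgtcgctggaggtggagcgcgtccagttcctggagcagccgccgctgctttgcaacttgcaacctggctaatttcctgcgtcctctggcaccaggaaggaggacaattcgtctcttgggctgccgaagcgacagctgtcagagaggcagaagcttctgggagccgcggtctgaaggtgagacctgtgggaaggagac

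Hoxa9, chr6:52227321-52227620, minus strand: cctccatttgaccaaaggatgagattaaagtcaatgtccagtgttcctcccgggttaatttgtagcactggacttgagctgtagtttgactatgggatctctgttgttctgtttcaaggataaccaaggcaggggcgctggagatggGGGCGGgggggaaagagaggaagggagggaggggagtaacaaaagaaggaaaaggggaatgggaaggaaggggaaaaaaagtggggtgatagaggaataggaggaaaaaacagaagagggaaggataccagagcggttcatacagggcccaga

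Hoxa10, chr6:52240805-52241104, minus strand: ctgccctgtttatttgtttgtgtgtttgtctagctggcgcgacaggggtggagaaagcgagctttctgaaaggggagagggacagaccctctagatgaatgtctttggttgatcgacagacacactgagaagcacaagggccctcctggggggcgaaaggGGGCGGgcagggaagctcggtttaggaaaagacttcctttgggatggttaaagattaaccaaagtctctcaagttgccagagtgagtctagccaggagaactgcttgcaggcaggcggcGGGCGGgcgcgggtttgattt

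The Hoxa2 window held 4 CCAAT boxes and 1 PBX-HOX composite, and its GC content was 45.7%. The Hoxa9 and Hoxa10 windows held 1 and 2 GC boxes, and the Hoxa3 window none of the 3 motifs. Among all 32851 mouse windows of this length, 37.4% hold a CCAAT box, 35.7% a GC box and 8.85% the composite. These matches are descriptions of the letters in each window.

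Of 7 noncoding RNAs listed with the clusters, 1 was higher and 2 were lower in the carotid knockouts. Hoxaas2, between Hoxa2 and Hoxa3 on the opposite strand, had 4.18 and 5.91 CPM in the carotid knockouts against 1.23, 1.56 and 1.1 CPM in the femoral knockouts (1.96 ± 0.25, adjusted p 0.00182). Mira, a noncoding RNA transcribed beside Hoxa7 (chromosome 6, 52214491 to 52215288, minus strand), had 0.165 and 0.176 CPM in the carotid knockouts and 4.71, 5.57 and 5.82 CPM in the femoral knockouts (−4.96 ± 0.28, adjusted p 9.45e-06). Mira was outside the list. Hoxb5os and Hoxa11os were the lower members, at 1 and 78 counts and at 0 and 48 counts. The call of Hoxa11os was lost without either carotid knockout, femoral knockout replicate 1 or 2, or femoral control replicate 1 or 3 (adjusted p 0.0502 to 0.127). The counting is not stated to use strand, so reads of these RNAs and of overlapping coding genes cannot be told apart.

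**Figure D2:**
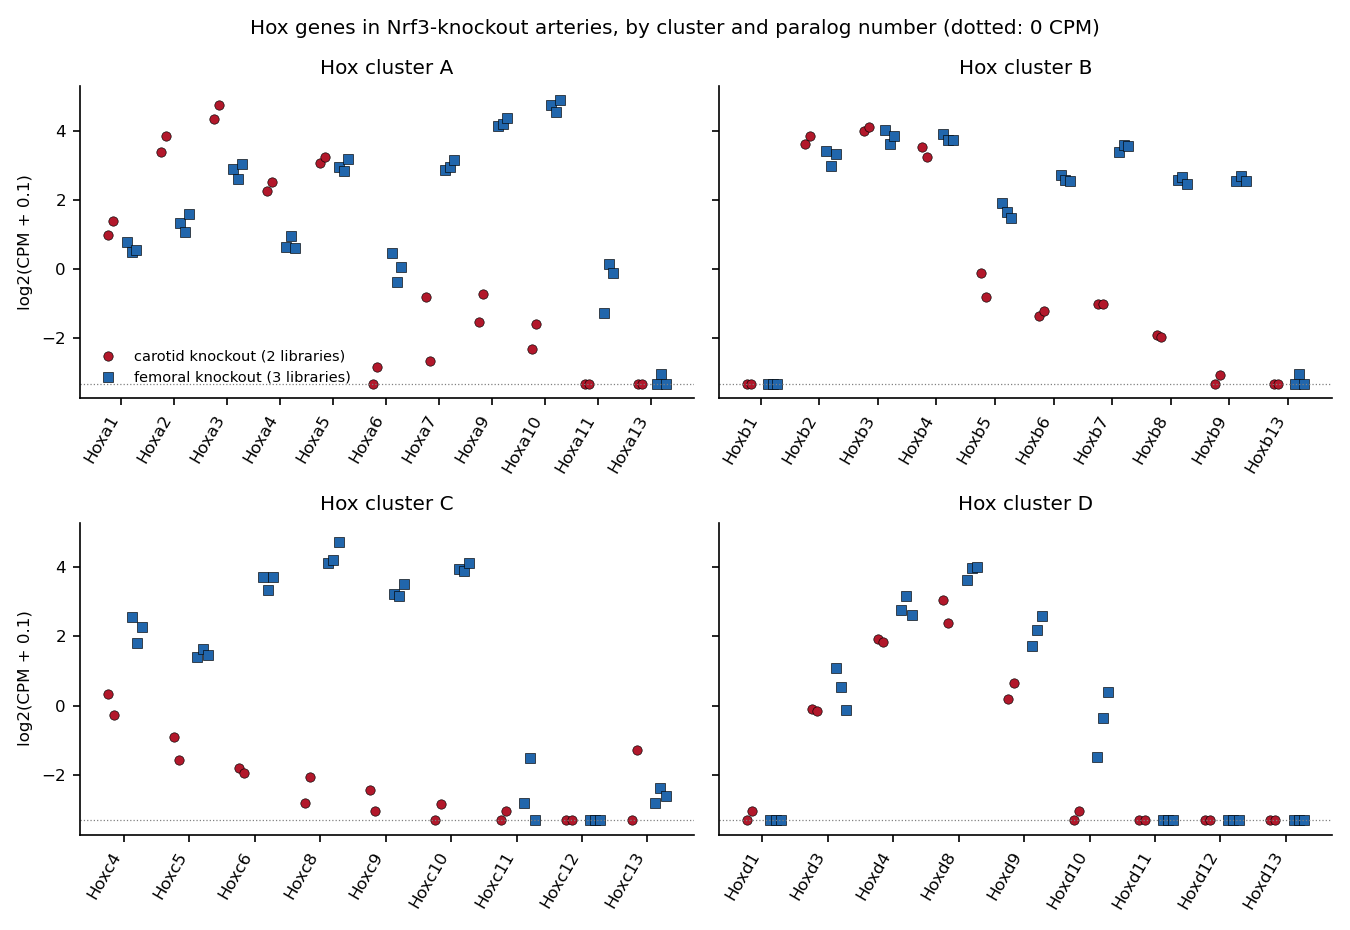
Level of each Hox gene as log2(CPM + 0.1) in the 2 carotid knockout libraries (red circles, left) and the 3 femoral knockout libraries (blue squares, right), with paralog numbers increasing from left to right in each cluster. In cluster A the carotid points lie above the femoral ones at Hoxa2 to Hoxa4 and below them from Hoxa6 to Hoxa11, and the dotted line marks 0 CPM.

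Transcription factors of limb, neural crest and heart also differed by vessel. Of the limb field list, 2 members were higher and 4 lower in the carotid knockouts of 13 tested. Pitx1, which gives the hindlimb its identity, had 3 counts over the carotid libraries and 456 over the femoral ones, a ratio of 108 (36.8 to 527). Shox2, a limb patterning factor, had 3.24 and 2.17 CPM in the carotid knockouts against 19.4, 20.3 and 28.1 CPM in the femoral knockouts (−3.06 ± 0.44, adjusted p 0.00332). Tbx15 (−1.40 ± 0.27) and Lmx1b, which sets dorsal limb identity, were also called lower, and missed the threshold without carotid replicate 1 (0.119) and carotid replicate 2 (0.0872). Hand2 and Isl1, which act in the pharyngeal arches and the heart field as well as in the limb bud, were the members that were higher. Hand2 had 26.1 and 18.4 CPM in the carotid knockouts against 0.592, 0.158 and 0.0415 CPM in the femoral knockouts (6.38 ± 0.76, adjusted p 0.00124). Isl1 had 4.86 and 5.56 CPM against 0.0211, 0.135 and 0.0207 CPM (6.44 ± 0.58, adjusted p 0.000814).

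Of the list for neural crest and pharyngeal arches, 7 members were higher and 3 lower of 23 tested. Lhx8, a LIM homeobox factor of the first arch, had 335 counts over the carotid knockouts and none over the femoral ones, at least 157-fold higher. Dlx1 (1.3 and 0.587 against 0, 0 and 0.0622 CPM) and Six2 (1.26 and 2.35 against 0.338, 0.451 and 0.29 CPM) were higher at low levels. Dlx1 lost its call without carotid replicate 1 (adjusted p 0.0595) and Six2 without carotid replicate 2 (0.0768). Pax3, Alx4 and Barx1 are on this list and were the 3 lower members. Barx1 had a log2 change of −1.21 without carotid replicate 1 and −1.26 without carotid replicate 2. Its call was lost in 8 of the 11 fits that left out a library. Pax3, which also marks limb muscle precursors, had no count over the carotid knockouts and 639 over the femoral ones, at least 152-fold lower. Alx4, which also patterns the limb bud, had 0.309 and 0.392 CPM against 11.2, 11.1 and 15 CPM (−5.14 ± 0.25, adjusted p 5.42e-06). The list's split was 3 higher and 3 lower without carotid replicate 1, 4 and 2 without carotid replicate 2 or femoral replicate 1, 4 and 3 without femoral replicate 2, and 3 and 2 without femoral replicate 3.

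Among cardiovascular transcription factors, 9 were higher and 2 lower of 26 tested, and 7 and 0 without carotid replicate 1. Gata6, a zinc finger factor of smooth muscle and the outflow tract, had 59.3 and 68.6 CPM in the carotid knockouts against 29.8, 25.7 and 32.2 CPM in the femoral knockouts (1.13 ± 0.15, adjusted p 0.00256). Meis1, a TALE partner of HOX proteins, had 19.7 and 20.4 CPM against 6.34, 6.63 and 7.01 CPM (1.59 ± 0.20, adjusted p 0.0018). Foxf1, a forkhead factor of visceral mesoderm, had 7.48 and 8.09 CPM against 1.65, 1.74 and 1.31 CPM (2.31 ± 0.33, adjusted p 0.00347). All 3 had every carotid knockout library above every femoral one, as did 18.6% of all genes tested. Tbx20 and Nkx2-3 had 113 and 60 counts over the carotid knockouts against 2 and 1 over the femoral ones, ratios of 79.4 (21.5 to 663) and 84.3 (14.6 to 3380).

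Wnt signalling genes that passed the test were mostly higher in the carotid knockouts. Of 37 tested, 11 were higher and 1 lower, with a median log2 change of 0.57, and 7 were higher without carotid replicate 1. Secreted inhibitors led the list. Wif1, which binds Wnt ligands, had 14.6 and 17.8 CPM in the carotid knockouts against 0.402, 0.812 and 0.767 CPM in the femoral knockouts (4.61 ± 0.32, adjusted p 4.6e-05). Frzb, a secreted Frizzled-like protein, had 146 and 141 CPM against 19.5, 17.5 and 13.6 CPM (3.08 ± 0.24, adjusted p 7.75e-05). Both kept their calls without any 1 library. Ligands rose with them. Wnt16 had 16.6 and 16.2 CPM against 1.73, 1.15 and 2.09 CPM (3.30 ± 0.39), Wnt10b was higher by 2.53 ± 0.40 and Wnt2b by 1.94 ± 0.29. Rspo3, an R-spondin that amplifies Wnt signals, had 14.1 and 15 CPM against 2.56, 1.92 and 1.72 CPM (2.81 ± 0.44, adjusted p 0.0054). Its relative Rspo1 was lower, by 1.30 ± 0.27 (log2, adjusted p 0.0213), and missed the threshold without carotid replicate 2 (0.153) or femoral replicate 1 (0.0587). Lgr6, a receptor for R-spondins outside this list, had 82.1 and 130 CPM in the carotid knockouts against 4.21, 3.77 and 2.86 CPM in the femoral knockouts (4.88 ± 0.37, adjusted p 6.92e-05). The receptor Fzd2 was higher by 1.07 ± 0.18 (adjusted p 0.00795).

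Matrix genes of the wall differed in a few members. Of 33 collagen and elastic fibre genes, 4 were higher and 1 lower, and 27 had a positive log2 change. Postn, the matricellular protein periostin, had 2930 and 3000 CPM in the carotid knockouts against 469, 344 and 266 CPM in the femoral knockouts (3.04 ± 0.25, adjusted p 0.000114). Fbn2, a fibrillin made mainly in development, had 64.8 and 37.1 CPM against 5.18, 2.21 and 1.53 CPM (4.10 ± 0.61, adjusted p 0.00428). Mfap4, a microfibril protein, was higher by 1.58 ± 0.14. Col8a1, a short-chain collagen of remodelling vessels, was the lower member, at 197 and 149 CPM in the carotid knockouts against 633, 604 and 633 CPM in the femoral knockouts (−1.85 ± 0.28, adjusted p 0.0049). Outside the list, Efemp1 (fibulin-3) and Lrrc17 were higher by 2.55 ± 0.19 and 2.93 ± 0.22.

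Of the matrix proteases and their inhibitors, 3 were higher and 5 lower of 30 tested. The counts were 0 and 2 without carotid replicate 1, 3 and 2 without carotid replicate 2, and 2 and 3 without femoral replicate 2. Adamts8, a secreted protease, had 6.94 and 10.7 CPM in the carotid knockouts against 59.9, 58.8 and 91.4 CPM in the femoral knockouts (−2.99 ± 0.26, adjusted p 0.00017). Timp1, an inhibitor of matrix metalloproteases, had 349 and 410 CPM against 990, 1050 and 630 CPM (−1.23 ± 0.22, adjusted p 0.0115, and 0.103 without carotid replicate 1). Outside the list, Hpse2, a relative of heparanase that binds heparan sulfate, had no count over the carotid knockouts and 5.69, 8.86 and 11.8 CPM in the femoral knockouts, at least 292-fold lower.

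Receptors for vasoactive signals differed in both directions. Of 43 genes tested, 5 were higher and 3 lower in the carotid knockouts, 3 and 2 without carotid replicate 1, and 10 and 4 without femoral replicate 3. P2rx1, the ATP-gated channel that carries the purinergic part of sympathetic constriction, had 4.33 and 6.81 CPM in the carotid knockouts against 174, 172 and 269 CPM in the femoral knockouts (−5.20 ± 0.32, adjusted p 1.38e-05). Agtr1b, an angiotensin receptor, had 0.124 and 0.352 CPM against 8.29, 11.6 and 11.6 CPM (−5.44 ± 0.56, adjusted p 0.000625). It has a close copy, Agtr1a, and how reads of both were split is not stated. Adra1d, an alpha-adrenergic receptor, went the other way, with 28.9 and 30.4 CPM in the carotid knockouts against 3.62, 3.52 and 7.34 CPM in the femoral knockouts (2.62 ± 0.36, adjusted p 0.00282). Adra1b was higher by 1.81 ± 0.28 (adjusted p 0.00512). Npr1, the natriuretic peptide receptor that makes cyclic GMP, had 107 and 134 CPM against 39.1, 42.9 and 49.3 CPM (1.46 ± 0.13, adjusted p 0.000247).

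Among potassium and calcium channels, 4 were higher and 1 lower of 31 tested, and 3 or 2 higher with 0 lower in the fits without 1 of the carotid knockouts or without femoral replicate 1 or 2. Both parts of the vascular ATP-sensitive potassium channel were higher. The pore gene Kcnj8 had 96.5 and 91 CPM in the carotid knockouts against 26.6, 24.1 and 34.7 CPM in the femoral knockouts (1.72 ± 0.23, adjusted p 0.00256). The regulatory subunit gene Abcc9 had 233 and 270 CPM against 98.1, 73.5 and 116 CPM (1.39 ± 0.20, adjusted p 0.00351). Neither overlapped between vessels, and 18.6% of all genes tested were likewise higher in every carotid knockout library. Neither Kcnj8 nor Abcc9 lost its call without any 1 library.

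**Figure D3:**
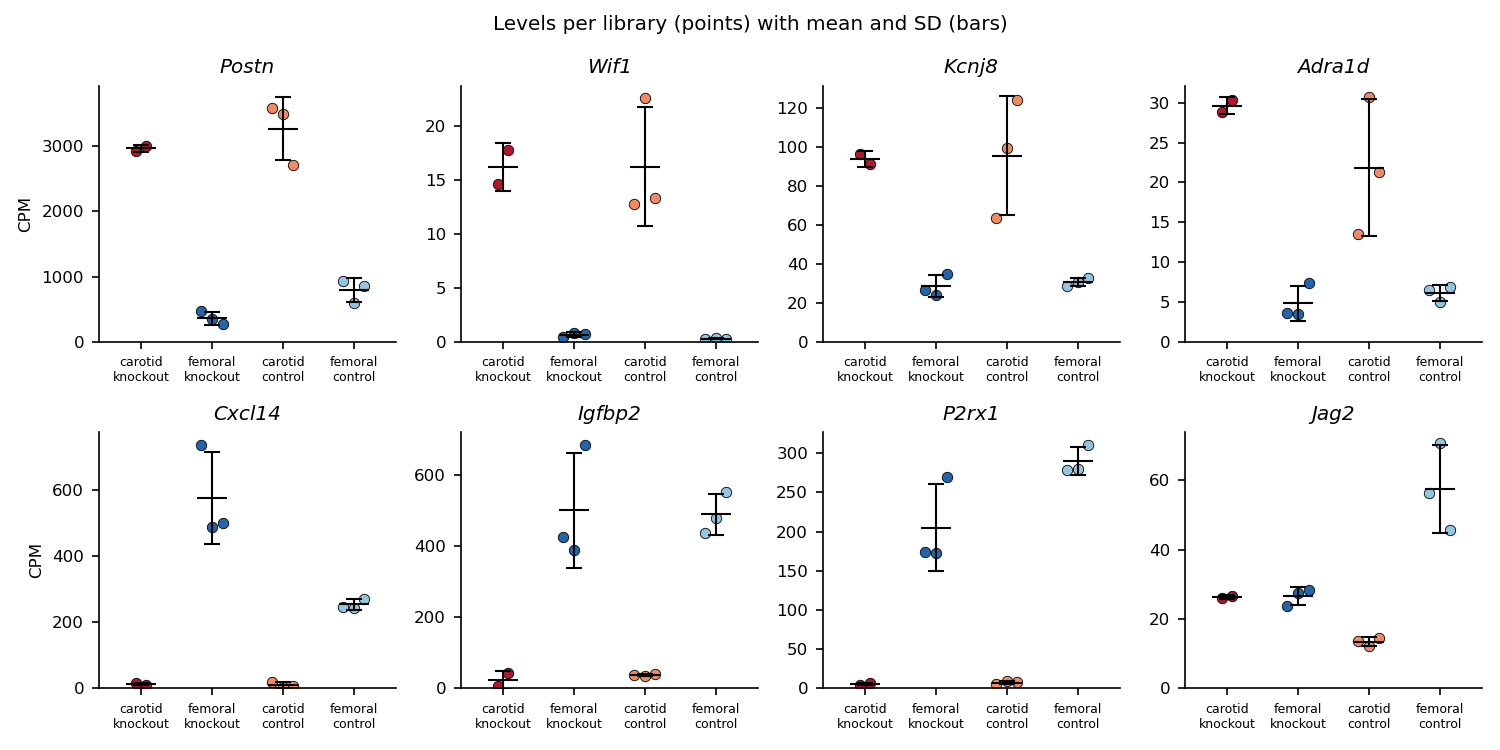
Levels of 8 genes in CPM, with a point for each library and bars for the mean and SD of each group (2 carotid knockout, 3 femoral knockout, 3 carotid control and 3 femoral control libraries), error bars cut at 0. The first 4 genes are higher and the next 3 lower in the carotid knockouts, and Jag2 is level between the knockout vessels, at 25.9 and 26.7 against 23.6, 27.6 and 28.4 CPM.

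Genes of the TGF-beta and BMP families, which regulate matrix and wall growth, were higher in 5 and lower in 1 of 40 tested. The counts were 1 and 1 without carotid replicate 1, 2 and 0 without femoral replicate 2, and 4 and 0 without femoral replicate 1 or 3. Leaving out femoral control replicate 1 or 2 also gave 4 and 0. Tgfbr2, the type II TGF-beta receptor, had 530 and 404 CPM in the carotid knockouts against 260, 203 and 240 CPM in the femoral knockouts (adjusted p 0.00668, and 0.0766 without carotid replicate 1). Bmp3, a ligand that opposes bone formation, had 20.8 and 18.6 CPM against 2.35, 4.58 and 5.76 CPM (2.22 ± 0.42, adjusted p 0.0132, and 0.0662 without carotid replicate 1). Among 26 cartilage and bone genes, 2 were higher and 3 lower, and 1 to 2 higher and 1 lower without carotid replicate 1 or 2, femoral replicate 1 or 3, or femoral control replicate 1. Sox9, the regulator of cartilage genes, had 13.3 and 15.4 CPM against 4.36, 2.89 and 5.08 CPM (1.80 ± 0.28, adjusted p 0.00512). Enpp1, which makes the calcification inhibitor pyrophosphate, had 44.8 and 44.4 CPM against 133, 94.5 and 122 CPM (−1.39 ± 0.18, adjusted p 0.00228). Sox9 and Enpp1 kept their calls without any 1 library.

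Of 20 flow response genes, 4 were higher and 1 lower, but 1 and 1 without carotid replicate 1 and 2 and 1 without femoral replicate 1. Vcam1, an adhesion molecule for leukocytes, had 601 and 528 CPM in the carotid knockouts against 267, 294 and 262 CPM in the femoral knockouts (1.04 ± 0.20, adjusted p 0.0155). Its adjusted p was 0.106 without carotid replicate 1 and 0.0522 without femoral replicate 1. Of 25 complement and coagulation genes, 2 were higher and 2 lower, and 1 and 0 without carotid replicate 2. C4b, a complement factor with a near copy, had 961 and 625 CPM against 343, 314 and 357 CPM (1.23 ± 0.19, adjusted p 0.00488).

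Few contractile smooth muscle genes passed the test. Of 25 tested, 1 was higher and 0 lower, with a median of −0.30. Tagln, a marker of contractile smooth muscle, overlapped between vessels, at 1560 and 2440 CPM in the carotid knockouts and 2130, 3230 and 3790 CPM in the femoral knockouts. Itga8, an integrin of contractile cells, was the called member (1.41 ± 0.25, adjusted p 0.00922, and 0.0779 without carotid replicate 2). Among 20 genes of modulated smooth muscle, 2 were higher and 2 lower, but 1 and 0 without carotid replicate 1. Myh10, a nonmuscle myosin of the modulated state, had 324 and 362 CPM against 132, 109 and 130 CPM (1.47 ± 0.17, adjusted p 0.000895). Cd44, a hyaluronan receptor of the same list, had 226 and 220 CPM against 389, 370 and 305 CPM (−0.67 ± 0.11, adjusted p 0.00855), and missed the threshold without carotid replicate 1 (0.06) or 2 (0.0678). Of 18 endothelial markers, 0 passed in the knockouts, and the summed level was 2360 and 2832 CPM in the carotid libraries against 2194, 2672 and 2821 CPM in the femoral libraries. Cdh5, the endothelial cadherin, had 303 and 343 CPM against 247, 271 and 255 CPM (0.33 ± 0.20, adjusted p 0.397). Adventitial fibroblast markers were higher in 5 of 16 and lower in 0, but in 0 of 16 without carotid replicate 1, 1 without femoral replicate 2, 2 without femoral replicate 1 and 3 without femoral replicate 3 or femoral control replicate 2.

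Cell cycle genes were lower in the carotid knockouts as a group. Of 30 tested, 13 passed as lower and 0 as higher. All 30 log2 changes were negative, with a median of −0.71, and for 28 of 30 every carotid library lay below every femoral one, against 18.3% of all genes. Ccnd1, the cyclin that starts the passage from G1 to S phase, had 60.4 and 69.7 CPM in the carotid knockouts against 209, 205 and 251 CPM in the femoral knockouts (−1.77 ± 0.25, adjusted p 0.0033), and kept its call without any 1 library. Rrm2, which makes DNA precursors, had 13.4 and 15.2 CPM against 32.4, 27.5 and 29.2 CPM (−1.05 ± 0.19, adjusted p 0.0117). Top2a, a topoisomerase of dividing cells, had 54.3 and 57.2 CPM against 111, 107 and 103 CPM (−0.94 ± 0.18, adjusted p 0.0142). Ccnb1, the mitotic cyclin, had 11.8 and 13.7 CPM against 26.2, 26.4 and 24.9 CPM (−1.02 ± 0.25, adjusted p 0.0457). Mki67, the usual marker of proliferation, had 55.5 and 67.7 CPM against 104 to 126 CPM, and did not pass (−0.86 ± 0.29, adjusted p 0.127).

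The number of cell cycle genes called moved with single libraries more than their median did. The median of the list lay between −0.87 and −0.66 over the 11 fits that left out a library. The number called fell to 1 without carotid replicate 1, 2 without carotid replicate 2, 6 without femoral replicate 1 and 5 without femoral replicate 2. It was 5 with the level of fast skeletal muscle genes as a covariate. Rrm2 and Top2a missed the threshold without carotid replicate 1 (0.106 and 0.105) or replicate 2 (0.0521 and 0.071), and Ccnb1 without any 1 knockout library or femoral control replicate 1 or 3 (0.055 to 0.237). In the control arteries 1 of the same genes was higher and 1 lower, with a median of −0.20. No cell cycle gene passed the test of the difference between the knockout and the control comparison, in which 1 gene of 21343 passed (0.00469%).

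Promoter windows of Ccnb1 and Rrm2 are shown as examples of the shared layout of cell cycle promoters, in which the CCAAT box is bound by the factor NF-Y. Capitals mark CCAAT and GGGCGG on either strand, and overlapping matches run together.

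Ccnb1, chr13:100786437-100786736, minus strand: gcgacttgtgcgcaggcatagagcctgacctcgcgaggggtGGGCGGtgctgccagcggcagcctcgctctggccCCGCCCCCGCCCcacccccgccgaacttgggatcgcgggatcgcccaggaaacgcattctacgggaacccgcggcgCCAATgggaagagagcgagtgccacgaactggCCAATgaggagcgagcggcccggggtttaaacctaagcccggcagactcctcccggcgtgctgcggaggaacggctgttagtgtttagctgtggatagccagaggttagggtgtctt

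Rrm2, chr12:24708004-24708303, plus strand: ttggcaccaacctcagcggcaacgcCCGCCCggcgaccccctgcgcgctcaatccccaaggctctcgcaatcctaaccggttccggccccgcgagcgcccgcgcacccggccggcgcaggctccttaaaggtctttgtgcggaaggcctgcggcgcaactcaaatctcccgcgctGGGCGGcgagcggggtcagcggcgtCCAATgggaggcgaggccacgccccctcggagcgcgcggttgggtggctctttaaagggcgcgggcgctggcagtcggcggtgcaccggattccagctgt

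Ccnb1 held 2 CCAAT boxes and 3 GC boxes and Rrm2 held 1 and 2. Of the 24 windows of 23 cell cycle genes with an entry, 83.3% held a CCAAT box and 87.5% a GC box, against 37.4% and 35.7% of all windows. The PBX-HOX composite was in 0 of the 24 and in 8.85% of all windows. A high CCAAT share was not particular to cell cycle genes. It was 77.8% in 9 windows of Hox paralogs 1 to 5, 75% in 4 windows of paralogs 6 to 8 and 45.5% in 11 windows of paralogs 9 to 13.

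Cytokine and chemokine genes were lower in the carotid knockouts in 7 of 41 tested and higher in 0, with a median of −0.88. The counts were 0 higher and 4 lower without carotid replicate 1, and 1 and 4 without carotid replicate 2. Cxcl14, a chemokine made by fibroblasts and epithelia, had 15.4 and 10.2 CPM in the carotid knockouts against 736, 488 and 500 CPM in the femoral knockouts (−5.49 ± 0.73, adjusted p 0.00238). Ccl17, a chemokine of dendritic cells, had 1.13 and 0.431 CPM against 11.8, 12.1 and 9.41 CPM (−3.83 ± 0.61, adjusted p 0.00583). Both kept their calls without any 1 library. Lif, a cytokine of the interleukin-6 family, had 7.32 and 5.87 CPM against 65.9, 31.8 and 30.1 CPM (−2.69 ± 0.48, adjusted p 0.0103), and missed the threshold without carotid replicate 1 (0.0637) or 2 (0.0804). Il6 itself had 34.2 and 7.71 CPM against 149, 118 and 49.1 CPM and Ccl2 had 91.9 and 38.3 CPM against 187, 273 and 138 CPM, neither called (adjusted p 0.071 for each).

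Markers of blood cells were set beside these values. Neutrophil markers summed to 609.8 and 483.2 CPM in the carotid knockouts and to 681.6, 893.6 and 316.5 CPM in the femoral knockouts, with 0 of 14 called. Macrophage markers summed to 6140 and 4654 CPM against 5641, 6502 and 4185 CPM, with 1 higher and 2 lower of 23. The counts were 1 and 0 without carotid replicate 1, 3 and 1 without carotid replicate 2, and 2 and 3 without femoral replicate 3. Gpnmb, a glycoprotein of lipid-laden macrophages, had 294 and 251 CPM against 49, 37.8 and 86.8 CPM (2.23 ± 0.38, adjusted p 0.00855). T and NK cell markers summed to 127.4 and 133.8 CPM against 158.8, 134.5 and 121.8 CPM, with 0 of 24 called. All 3 sums overlapped between vessels. The part of these cells in the cytokine difference was not tested.

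Growth factors and their binding proteins gave 3 higher and 5 lower of 38 tested. The counts were 1 and 2 without carotid replicate 1, 3 and 2 without femoral replicate 1, 1 and 3 without femoral replicate 2, and 2 and 3 without femoral replicate 3. Binding proteins of insulin-like growth factors split between the vessels. Igfbp3 had 247 and 240 CPM in the carotid knockouts against 34.8, 32.3 and 25 CPM in the femoral knockouts (2.99 ± 0.33, adjusted p 0.000869). Igfbp2 had 6.7 and 42.1 CPM against 426, 390 and 685 CPM (−4.36 ± 0.65, adjusted p 0.00417). Of 25 lipid handling genes, 3 were higher and 5 lower, and 2 and 2 without carotid replicate 2. Apoe, which carries lipid out of cells, had 3190 and 2390 CPM against 1340, 1330 and 1230 CPM (1.10 ± 0.14, adjusted p 0.00189).

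Of 27 genes of the cap'n'collar and antioxidant list, the family of Nrf3 and its neighbours, 1 was higher and 1 lower. Hmox1, heme oxygenase, had 181 and 150 CPM in the carotid knockouts against 55.1, 61.4 and 49.7 CPM in the femoral knockouts (1.58 ± 0.26, adjusted p 0.00623). Sod2, the mitochondrial superoxide dismutase, had 107 and 96.1 CPM against 167, 209 and 149 CPM (−0.78 ± 0.18, adjusted p 0.0342). It missed the threshold without carotid replicate 1 (0.115) or 2 (0.187), or femoral replicate 1 (0.0644) or 2 (0.103). Oxidative phosphorylation, interferon and clock genes had 0 called of 30, 30 and 19 members.

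Further genes with wide vessel differences belong to none of the lists above. Dsp, the desmosome protein desmoplakin, had 52.5 and 80.2 CPM in the carotid knockouts against 0.211, 0.158 and 0.104 CPM in the femoral knockouts (8.70 ± 0.62, adjusted p 4.6e-05). Pde1c, a calcium-dependent phosphodiesterase of proliferating smooth muscle, had 9.01 and 10.6 CPM against 0.233, 0.135 and 0.228 CPM (5.61 ± 0.41, adjusted p 4.6e-05). Fam84a had 24.9 and 26.8 CPM against 0.338, 0.722 and 0.373 CPM (5.76 ± 0.45). Myrf, a membrane-bound transcription factor, had 15 and 17.1 CPM against 1.08, 1.69 and 1.2 CPM. Mup17, a major urinary protein gene, was lower (−5.17 ± 0.81), but has near-identical copies among which reads may have been split.

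Several lists of markers for tissue around the arteries differed between libraries of 1 vessel. Sympathetic neuron genes were higher in 7 of 22 and lower in 0, with a median of 4.16, and summed to 464.1 and 137.5 CPM in the carotid knockouts against 105.5, 108.9 and 110.4 CPM in the femoral knockouts. Most of this was carotid replicate 1. Th, the rate-limiting enzyme of catecholamine synthesis, had 20.5 CPM there, 0.274 CPM in carotid replicate 2 and 0.0211, 0 and 0 CPM in the femoral knockouts. Snap25, a synaptic protein, had 10.1 CPM in carotid replicate 1 and 0.372 CPM in replicate 2, against 0, 0.0225 and 0.0207 CPM, and its adjusted p was 0.0252, but 0.29 without carotid replicate 1, 0.0705 to 0.0977 without any 1 femoral knockout, and 0.0511 without femoral control replicate 2. Nefl, a neurofilament gene, was at 0 in the femoral knockouts, at least 250-fold higher in the carotid. The list had 3 members called without carotid replicate 1 or any 1 femoral knockout, and 16 without carotid replicate 2. Hand2, described with the limb genes, is also on this list and had 18.4 CPM in carotid replicate 2, where the list summed to 137.5 CPM. The part of sympathetic neurons in the Hand2 difference was not tested.

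Carotid replicate 2 held genes of other tissues. Krt5, a basal keratin, had 0.124 CPM in carotid replicate 1 and 14 CPM in replicate 2, against 0.0211, 0 and 0 CPM in the femoral knockouts (adjusted p 0.0254). Its adjusted p was 0.523 without carotid replicate 2, 0.0749 to 0.106 without any 1 femoral knockout, and 0.0564 without femoral control replicate 2. Keratinocyte markers summed to 31.57 and 60.28 CPM in the carotid knockouts and to 12.9, 13.64 and 11.92 CPM in the femoral knockouts, with 2 of 10 called. Ucp1, the uncoupling protein of brown fat, had 14.4 and 204 CPM against 0.211, 0.541 and 1.24 CPM (7.34 ± 1.36, adjusted p 0.0123). Its call was lost without carotid replicate 2 (0.0835) or femoral replicate 1 (0.0518) or 2 (0.0607), and brown fat markers summed to 233.1 and 579.8 CPM against 174, 167 and 216.1 CPM. Fast skeletal muscle markers ranged widely within each vessel, at 30.11 and 694.6 CPM in the carotid knockouts and 261.9, 2253 and 551.2 CPM in the femoral knockouts, with 0 of 18 called. White fat markers summed to 1512 and 1802 CPM against 1343, 2925 and 5667 CPM, with 0 higher and 1 lower of 15. Lymphatic endothelial markers separated the vessels in each library instead, with sums of 153.7 and 182.5 CPM in the carotid knockouts against 271.3, 282.1 and 376.7 CPM in the femoral knockouts, and with 0 higher and 2 lower of 8. Their sums in the controls were 152, 145.4 and 184.8 CPM in the carotid against 368.5, 393.5 and 413.4 CPM in the femoral artery. Lyve1, a hyaluronan receptor of lymphatic vessels, had 15.4 and 23.5 CPM in the carotid knockouts against 39.5, 47.1 and 67.8 CPM in the femoral knockouts (−1.40 ± 0.25, adjusted p 0.00987, and 0.0873 without carotid replicate 1). Lyve1 is also on the macrophage list, and is counted as lower in both lists. The part of the tissues around the arteries in the differences above was not tested. The exceptions were the fits that left out each library and the fit with fast skeletal muscle as a covariate, which called 627 genes.

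**Figure D4:**
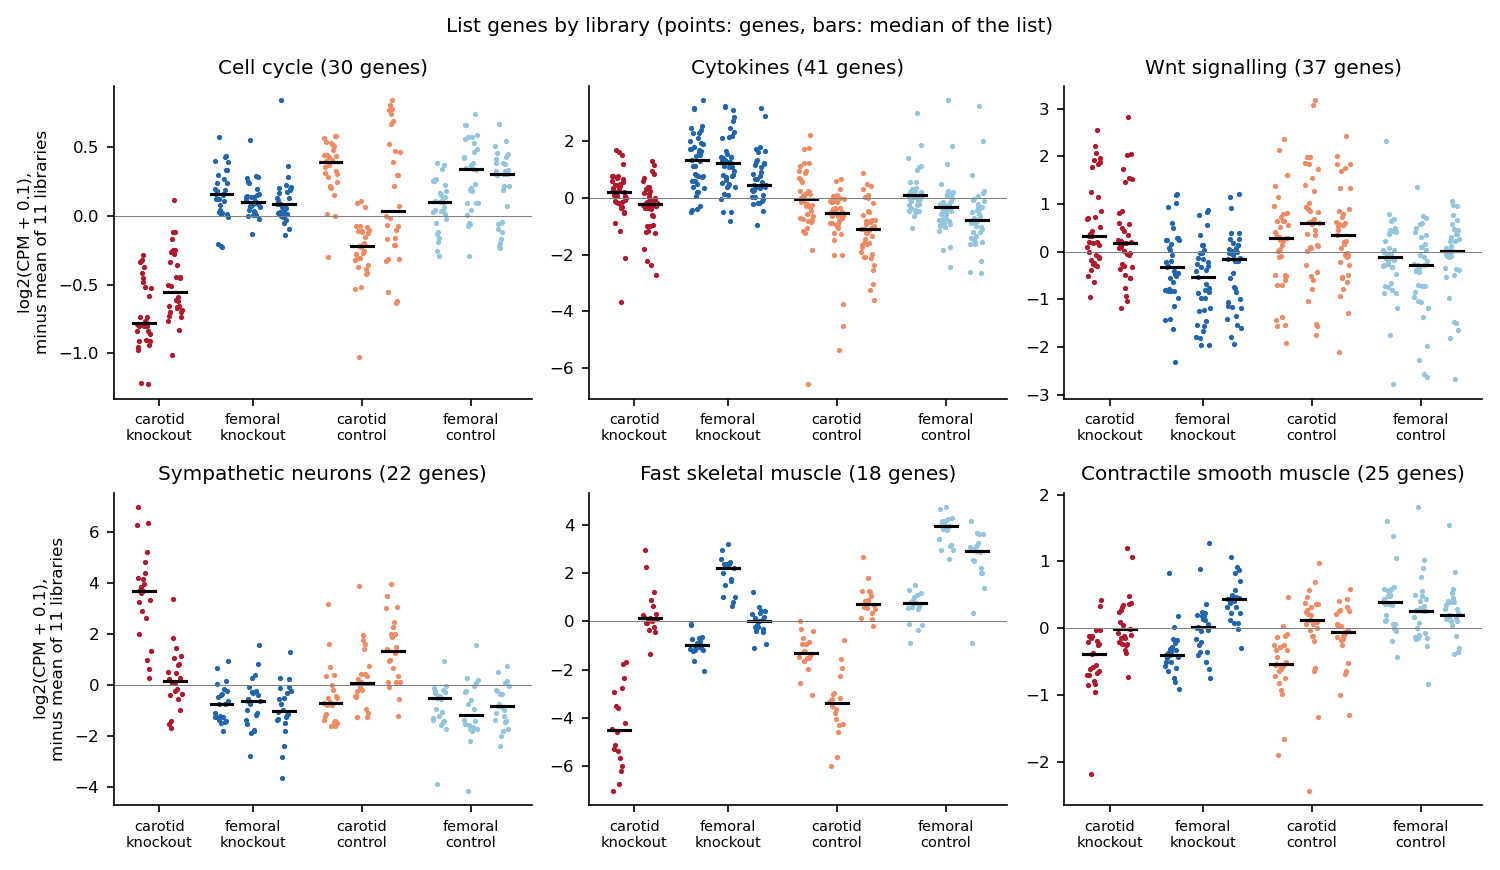
Level of the genes of 6 lists in each of the 11 libraries, as log2(CPM + 0.1) minus each gene's mean over the libraries, with a point for each gene and a bar for the median of the list. Cell cycle genes lie lowest in both carotid knockout libraries, sympathetic neuron genes are high in carotid knockout replicate 1, and fast skeletal muscle genes differ between libraries of the same group.

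The same vessel difference was read in control arteries, which share no library with the knockouts but share with them the fit's estimate of the spread. There 1326 genes passed, 6.21%, with 639 higher (2.99%) and 687 lower (3.22%) in the carotid controls, and 20.2% of genes had an unadjusted p under 0.05. Of the knockout calls, 550 were also called in the controls, which is 52.5% of the knockout calls and 41.5% of the control calls. All 550 had the same direction, 336 higher and 214 lower. Of all 1047 knockout calls, 986 (94.2%) had the same sign in the controls. The share with the same sign over all genes tested was not computed. Across all genes tested, the log2 changes in knockouts and controls had a Pearson r of 0.61 and a Spearman rho of 0.42. The median size of the knockout calls was 1.42 on the log2 scale in the knockouts and 0.89 in the controls, a comparison that favours the knockouts, in which those genes were chosen.

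Some genes had log2 changes of like size in both comparisons. P2rx1 was at −5.20 in the knockouts and −5.29 in the controls, Hoxa10 at −7.25 and −7.82, Alx4 at −5.14 and −4.79, Kcnj8 at 1.72 and 1.64, and Wif1 at 4.61 and 5.77. Other genes passed only 1 of the comparisons. Gpnmb had 216, 106 and 93 CPM in the carotid controls and 82.3, 71.5 and 98.1 CPM in the femoral controls. Lif had 12.4, 10.2 and 4.37 CPM against 15.2, 9.35 and 12.9 CPM there. Both overlapped between control vessels, and neither passed the test of the difference between the comparisons (adjusted p 0.491 and 0.423).

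**Figure D5:**
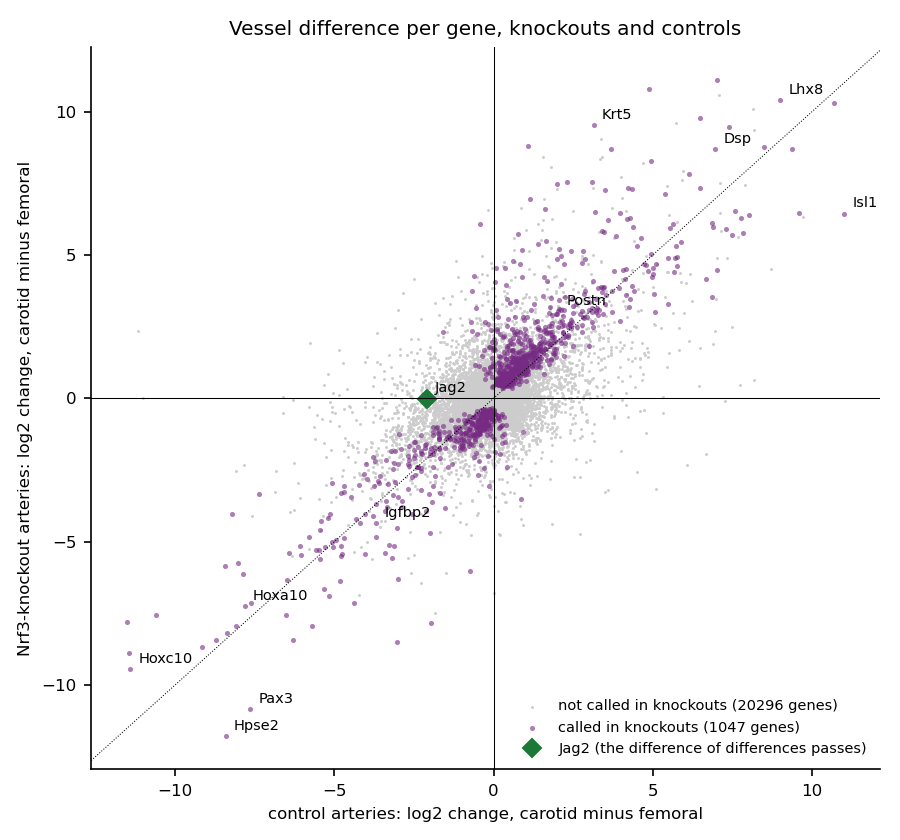
Log2 change of each of 21343 genes between carotid and femoral artery in Nrf3-knockout mice (vertical) and in control mice (horizontal), with the 1047 genes called in the knockouts in purple and the dotted line marking equal changes. Most purple points lie in the upper right and lower left, 986 of 1047, and Jag2 (green) is near 0 in the knockouts and at −2.10 in the controls. Over all genes shown, the Spearman rho between the log2 changes is 0.42.

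Jag2 was the only gene for which the vessel difference itself differed between knockouts and controls at an adjusted p under 0.05, by edgeR, while 1815 genes (8.5%) had an unadjusted p under 0.05 and DESeq2's Wald test called 140. Jag2 encodes a Notch ligand (chromosome 12, 112907803 to 112929517, minus strand, GRCm38). It had 25.9 and 26.7 CPM in the carotid knockouts and 23.6, 27.6 and 28.4 CPM in the femoral knockouts, a log2 change of −0.01 ± 0.17. In the controls it had 13.6, 12.1 and 14.6 CPM in the carotid and 56.3, 70.8 and 45.5 CPM in the femoral artery, a change of −2.10. The knockout vessels overlapped and the control vessels did not. The knockout carotid libraries lay above the control carotid libraries and the knockout femoral libraries below the control femoral libraries. The difference of 2.09 had an adjusted p of 0.0394 in edgeR's quasi-likelihood test. It missed the threshold without either carotid knockout, any of the femoral knockouts, any of the carotid controls, or femoral control replicate 1, with adjusted p values of 0.069 to 0.185, and kept it without femoral control replicate 2 or 3.

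Of 16 Notch genes tested, Jag2 among them, 2 were higher and 0 lower in the carotid knockouts. The log2 change was positive in 8 of the 16, with a median of 0.06. In the controls 0 were higher and 4 lower, with a median of −0.18. The called members in the knockouts, Heyl and Hey1, are also on the list of cardiovascular transcription factors. Heyl, a target of Notch in smooth muscle, had 68.7 and 79.6 CPM in the carotid knockouts against 21.3, 22.5 and 36.6 CPM in the femoral knockouts (1.47 ± 0.25, adjusted p 0.00814). In the controls it had 44.1, 74.3 and 62.8 CPM against 51.9, 49.1 and 61.1 CPM, which overlapped. Hey1, a second target, was higher in the knockouts by 1.13 ± 0.24 (adjusted p 0.0245) and missed the threshold without carotid replicate 1 (0.119) or 2 (0.0889) or femoral replicate 1 (0.0784) or 2 (0.0785). Neither passed the test of the difference between the comparisons (adjusted p 0.423 and 0.436). The promoter window of Jag2 is shown as that of the gene edgeR called in the difference between knockouts and controls, with capitals for GGGCGG on either strand.

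Jag2, chr12:112929446-112929745, minus strand: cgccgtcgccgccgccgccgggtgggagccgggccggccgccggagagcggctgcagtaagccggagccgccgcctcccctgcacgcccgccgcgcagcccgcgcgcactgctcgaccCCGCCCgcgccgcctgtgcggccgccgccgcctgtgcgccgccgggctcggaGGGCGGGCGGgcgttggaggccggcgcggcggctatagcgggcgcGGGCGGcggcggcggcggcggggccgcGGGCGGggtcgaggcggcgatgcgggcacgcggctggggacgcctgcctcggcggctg

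It held 5 GC boxes, 2 of them overlapping, no CCAAT box and no PBX-HOX composite, and its GC content was 86%.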

How the data were processed

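Polyadenylated RNA of injured mouse arteries was read by paired-end sequencing in 11 libraries. The deposited table holds raw read counts per gene for 48897 genes, with gene lengths that were not used here. The submitters' processing notes list HISAT2, HTSeq, DESeq, DESeq2, edgeR and mm9 with no versions. Strand and the handling of reads with several matches are not given in the sources used here. Positions in the table overlap those of GRCm38 for 99.85% of 39064 genes joined by ID, so that they are given as GRCm38. A total of 27 symbols that a spreadsheet had turned into dates were restored.

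Genes with low counts were dropped by filterByExpr, leaving 21343 (43.6%). All 11 libraries entered 1 model with a mean per group (edgeR 4.0.16 with limma 3.58.1 in R 4.3.3, TMM scaling, quasi-likelihood test, two-sided, Benjamini-Hochberg adjustment over all genes tested, threshold 0.05, 7 residual degrees of freedom). The biological coefficient of variation was 25.6%. Log2 changes are carotid minus femoral with their SE, and CPM are counts scaled to a common library total. Library totals ran from 43698644 to 55998563 counts. Replicates differed by a chi-square of 68.8 to 126 per gene, far beyond sampling noise. On data simulated for the knockout comparison with 20715 genes, 59% of 100 genes changed 2-fold and 88% of 100 genes changed 4-fold were recovered, with 5 false among 152 calls. The changed genes were taken from those averaging at least 1 CPM, so the shares recovered do not cover genes below that level. Genes were drawn independently there, without shifts shared by many genes of a library, so these shares may not hold in the real libraries.

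Members and gene lists were chosen with earlier results of these data known, and 6 of the list genes did not match the table. Genes were named by a rule: Nfe2l3 and Trim5; the 12 largest rises and 12 largest falls among called genes whose libraries did not overlap and whose higher vessel averaged 5 CPM or more; called members of the position lists with up to 3 uncalled; the 4 smallest p of each list with at least 3 called members and 2 of the others; and up to 6 genes per direction for the difference from controls and for shared calls. Other called list members, and Mki67, Il6, Ccl2, Th, Cdh5, Tagln and Agtr1a, were named after their values were seen. Intervals and floors (3 counts) cover counting error only. The alternatives were other scalings, DESeq2 1.42.0, no filter, fewer groups or genes, a skeletal muscle covariate, a replicate block and leaving out each library.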

Additional observations from a re-analysis of the deposited data

Results flagged for a closer look

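Jag2, a Notch ligand, was the 1 gene called by edgeR's quasi-likelihood test of whether the vessel difference was the same in knockouts and controls. It had 25.9 and 26.7 CPM in the carotid knockouts and 23.6, 27.6 and 28.4 CPM in the femoral knockouts, against 13.6, 12.1 and 14.6 CPM in the carotid controls and 56.3, 70.8 and 45.5 CPM in the femoral controls. The log2 difference, knockouts minus controls, was 2.087 (adjusted p 0.0394). The call was lost with the muscle covariate, with either replicate block and in 9 of the 11 fits that left out a library, and DESeq2's Wald test called 140 genes.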

How the results depend on the processing

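The vessel difference in the knockouts gave 1047 calls, that in the controls 1326, and the difference between them 1. DESeq2's Wald test called 2025, 2207 and 140 genes. With only the 5 knockout libraries, 578 genes were called, of which 519 were among the 1047 in the same direction. With the level of fast skeletal muscle genes as a covariate the counts were 627, 523 and 0, and with no filter on low counts the difference between knockouts and controls had 17. DESeq2's size factors, protein-coding genes alone, and the remaining counts of these settings stayed within 1.5 times. Over the fits that left out 1 library the counts ran over 459 to 1182, 685 to 1408 and 0 to 3. Moved by over 1.5 times were the knockout comparison, with 459 without carotid knockout replicate 1, 591 without carotid knockout replicate 2 and 568 without femoral knockout replicate 2, and the control comparison, with 685 to 876 without carotid control replicate 2 or 3 or any 1 femoral control. The single call without carotid control replicate 1 was not Jag2. In deviations from the group mean, same-numbered libraries had r of 0.131 and 0.104 in the knockouts. In the controls they had 0.108, −0.043 and 0.140, and control libraries with different numbers had −0.149 to 0.028. With 2 carotid knockouts, their deviations mirror each other, so r in the knockouts cannot show whether the numbers are pairs. The labels do not state pairs, and the numbers were not taken as pairs. A replicate block by title number called 1272 genes in the knockouts, 752 of them shared, 1614 in the controls and 0 for the difference, and a block by the number in the column names called 735, 1553 and 0.

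Of 267 genes recomputed, 204 were called, and 87 of these kept their call without any 1 library. No called gene changed direction. The sign turned for uncalled genes: Jag2 in the knockouts, which was at −0.01 and at −0.092 without femoral replicate 1, was at 0.101 with the muscle covariate, 0.043 and 0.022 with the replicate block by title and by column name, and 0.001, 0.015 and 0.025 without carotid replicate 1, femoral replicate 2 and femoral replicate 3. Without carotid replicate 2, Trim5 was at −0.335, Myh8 at −6.769, Myh3 at −3.147 and Elovl3 at −0.066, while their highest values were 1.710, 6.848 and 4.734 without carotid replicate 1 and 8.637 without femoral replicate 3. The cause of these shifts was not tested. With 2 carotid knockout libraries, the spread of that group rests on a single difference and on the other groups.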

Other observations

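A pair of gene lists was chosen after the values were seen, and each is given as counts. Of 20 cholesterol synthesis genes tested, 15 were lower in the carotid knockouts and all 20 had a negative log2 change, with a median of −0.995. In the controls 12 were lower, with a median of −0.76. Of the 15 called in the knockouts, 8 kept their call without carotid replicate 2. Fdps, which makes farnesyl diphosphate, had 26.3 and 23.9 CPM in the carotid knockouts against 74.2, 71.6 and 90.4 CPM in the femoral knockouts (−1.65 ± 0.12, adjusted p 4.6e-05). Cyp51, which removes a methyl group from lanosterol, had 26.8 and 22.2 CPM against 75.9, 79.5 and 80.4 CPM, a log2 change of −1.68. Both had every carotid knockout library below every femoral one, as did 18.3% of all genes tested. No gene of the list differed between the knockout and control comparisons by the test of that difference.

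Of 18 imprinted growth genes tested, 8 were higher in the carotid knockouts and 0 lower, with a median of 0.45. Of these 8, H19 and Cdkn1c were the 2 that kept their call without carotid replicate 1, 5 kept it without carotid replicate 2 or femoral replicate 3, and 4 without femoral replicate 2. In the controls 2 were higher and 2 lower, with a median of 0.01. H19, a maternally expressed noncoding RNA, had 451 and 313 CPM in the carotid knockouts against 64, 44.9 and 27.3 CPM in the femoral knockouts (3.07 ± 0.46, adjusted p 0.00417). Its change in the controls was 0.08 (adjusted p 0.95). Cdkn1c, an inhibitor of the cell cycle on this list, had 51.9 and 46.9 CPM against 19.9, 19.5 and 25.3 CPM (1.20 ± 0.17, adjusted p 0.00277). None of the 18 passed the test of the difference between knockouts and controls, so that a difference between them is not shown.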
